A study of Mus musculus with 22 samples.

Results

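The genes described here are 49 genes of DNA replication and S phase, from origin licensing to the checkpoint at the replication fork, chosen by symbol from a fixed list of names. All 49 were found among the 54514 entries of the deposited expression table, and all 49 passed the filter of a mean of at least 1 TPM (RNA abundance per transcript length, scaled to a fixed total in each library) in every comparison. They were measured by RNA-seq in mpkCCD cells (mpkCCDc11, secondary clone 38), an immortalised mouse line that models the principal cell of the renal collecting duct, cultured on transwell membranes. Wild-type (WT) cells, which were not sorted, had either vehicle or dDAVP, a vasopressin analogue that acts on the V2 receptor, with 3 libraries per treatment. The clones C1, C11, C43 and C50 carried the GFP reporter, had dDAVP without exception, and were sorted by GFP into a negative and a positive fraction of 2 libraries each. That gives 22 libraries in 10 groups, of which only the WT vehicle group had no dDAVP. Each reporter line is 1 clone, the labels do not say what drives its GFP, and the dDAVP dose and duration of each library are not given, so none of these was analysed here. Nothing in the labels says that libraries of a group came from separate cultures, so p-values measure the spread between these libraries, which may be technical.

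Before S phase, origins are licensed when ORC, Cdc6 and Cdt1 load rings of the Mcm2 to Mcm7 proteins onto DNA, and geminin (Gmnn) later blocks a second loading. Cdc45 and the GINS complex then join the ring to form the CMG helicase, which unwinds DNA ahead of the polymerases, the sliding clamp Pcna and the enzymes that supply nucleotides. Many of these genes are transcribed under E2F factors at the border of G1 and S, and their mRNAs are abundant in cycling cells and scarce in resting ones. In RNA from many cells, a smaller share of cells in S phase and less of each transcript per cell cannot be told apart.

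Promoters of 6 genes are shown because they hold letters of the E2F type: for each role, the gene of largest change between GFP fractions among those with a match, and Mcm6, which holds 3 matches. RefSeq promoter windows (GRCm38.p6, 250 bases before to 50 after the start site) were found for 37 of the 49 genes. The search was for TTTCCCGC, TTTCGCGC, TTTGCCGC or TTTGGCGC on either strand, with overlapping matches counted separately. Below are the 250 bases upstream of Mcm7 (chr5:138171884-138172133, minus strand), Mcm6 (chr1:128359706-128359955, minus strand), Gins3 (chr8:95633309-95633558, plus strand), Rfc3 (chr5:151651209-151651458, minus strand) and Uhrf1 (chr17:56304063-56304312, plus strand), and 30 bases around the match of Clspn just after its start site (chr4:126556990-126557019, plus strand). Each is written 5′ to 3′ on the gene's strand, and capitals mark the matches; Mcm6 was added after its values were seen.
Mcm7: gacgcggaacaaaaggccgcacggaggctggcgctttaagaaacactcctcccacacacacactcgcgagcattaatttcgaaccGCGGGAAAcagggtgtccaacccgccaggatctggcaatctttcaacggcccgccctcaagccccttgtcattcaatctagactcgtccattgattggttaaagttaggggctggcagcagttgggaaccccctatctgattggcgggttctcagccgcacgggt
Mcm6: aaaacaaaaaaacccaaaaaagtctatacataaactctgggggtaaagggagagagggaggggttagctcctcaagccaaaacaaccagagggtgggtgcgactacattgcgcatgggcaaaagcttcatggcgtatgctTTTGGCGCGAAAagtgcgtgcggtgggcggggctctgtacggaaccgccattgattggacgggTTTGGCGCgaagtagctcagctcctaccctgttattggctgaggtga
Gins3: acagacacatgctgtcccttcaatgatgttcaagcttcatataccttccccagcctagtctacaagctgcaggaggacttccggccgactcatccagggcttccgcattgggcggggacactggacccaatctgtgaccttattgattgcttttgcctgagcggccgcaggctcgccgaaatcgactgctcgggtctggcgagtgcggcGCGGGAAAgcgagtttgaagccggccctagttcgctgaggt
Rfc3: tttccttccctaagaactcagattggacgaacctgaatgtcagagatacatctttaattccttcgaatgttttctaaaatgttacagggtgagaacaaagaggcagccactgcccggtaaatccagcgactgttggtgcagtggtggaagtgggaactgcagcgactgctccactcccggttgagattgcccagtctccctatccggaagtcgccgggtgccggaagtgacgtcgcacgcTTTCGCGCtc
Uhrf1: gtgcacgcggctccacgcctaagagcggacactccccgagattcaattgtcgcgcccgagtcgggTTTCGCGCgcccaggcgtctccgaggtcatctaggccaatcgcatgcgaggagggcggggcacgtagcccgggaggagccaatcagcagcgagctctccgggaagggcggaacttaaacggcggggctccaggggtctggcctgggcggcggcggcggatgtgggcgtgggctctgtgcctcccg
Clspn: accgcgtctggGCGCGAAAgctcgaacttc
Counted from the start site as position 0, the first bases of the matches lie at -165 and 16 in Mcm7, at -110, -106 and -47 in Mcm6 (the first 2 overlap), at -41 in Gins3, at -10 and 0 in Rfc3, at -185 in Uhrf1 and at 21 in Clspn. For 16 of the 37 genes (43.2%) a window held such a match, and some genes had several windows. The share was 5.0% of 9392 expressed genes and 2.6% of 27025 genes in the table. It was 25.9% of 54 other replication genes and 3.7% of 27 genes of G2 and M phase. At least 2 matches were present in 5 of the 37 (13.5%, against 0.3% of expressed genes), and in none of the 4 nucleotide genes was a match found. The CCAAT letters were present in 62.2% of the replication genes, 81.5% of the G2 and M phase genes and 43.3% of expressed genes. Genes with and without an E2F-type match overlapped widely in how they changed: from the GFP-negative to the GFP-positive fraction, the 16 with a match had a median log2 change of -0.36 (-1.19 to 0.08) and the 21 without one -0.57 (-1.25 to -0.04). Among the genes whose promoters are printed, Mcm6, with 3 matches, changed by -0.02 and Clspn, with 1, by -1.19. A match is a run of letters, not a measured binding site.

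The labels were checked against Aqp2 and GFP. Aqp2, the vasopressin-regulated water channel, was 64.1 to 74.9 TPM with vehicle and 2759 to 3025 TPM with dDAVP, and GFP was at most 0.79 TPM in WT cells, 5.31 to 17.6 TPM in GFP-negative and 1065 to 1567 TPM in GFP-positive fractions. All 8 epithelial markers had a group mean of at least 1 TPM, as did 7 or 8 of 11 principal-cell markers. Of the latter, Elf5 was under 0.1 TPM in WT cells and in GFP-negative fractions. Kcnj1 was under 0.1 TPM in WT cells with vehicle and in GFP-negative fractions. None of 7 fibroblast, 4 endothelial or 4 thick limb markers had such a mean (summed levels up to 1.69, 1.57 and 1.57 TPM). Such a mean was found for 1 of 7 intercalated, 1 of 6 proximal tubule and 2 of 6 leukocyte markers. Their summed levels reached 8.1, 16.2 and 31.6 TPM. TPM keep no depth, so depth is unknown. The number of genes with any signal ran from 17177 to 31292, with a gap that left 10 libraries at up to 20250 and 12 at 23135 or more, and 3 of the 4 C1 libraries were in the lower set. GFP-negative replicate 1 of C50 stood apart, with a median of 3.95 over all expressed genes on the log2(TPM + 1) scale against 4.19 to 4.75 in the other 21. Over all genes the median change with dDAVP was -0.16 as deposited and 0.00027 after median-ratio scaling, and the share of higher among all calls moved from 26.7% to 59.5%. For the GFP comparison over the clones that share moved from 34.2% to 51.0%.

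Replication transcripts were abundant. Their mean over the 22 libraries ran from 3.06 TPM (Blm, a RecQ helicase) to 435 TPM (Mcm6), with a median of 108 TPM, against 21.4 TPM over 13243 expressed genes. The most abundant gene of each role was Mcm6 for licensing, Gins2 for the helicase, Rfc2 for synthesis, Tyms for nucleotides, Slbp for chromatin and Tipin for the checkpoint. The summed level of the 49 with vehicle was 7512 ± 145 TPM and with dDAVP 5604 ± 66.9 TPM (SD, n = 3 each). In C11 it was 6810 ± 182 TPM in the GFP-negative and 4940 ± 79.9 TPM in the GFP-positive fraction (SD, n = 2 each), in C43 6268 ± 226 and 4248 ± 111 TPM, and in C50 6167 ± 937 and 3792 ± 6.51 TPM. In C1 the sums were 7603 ± 233 and 7297 ± 15.8 TPM (SD, n = 2 each), so the GFP-positive libraries of this clone lay above every GFP-positive library of the other clones and above all WT dDAVP libraries.

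**Figure D1:**
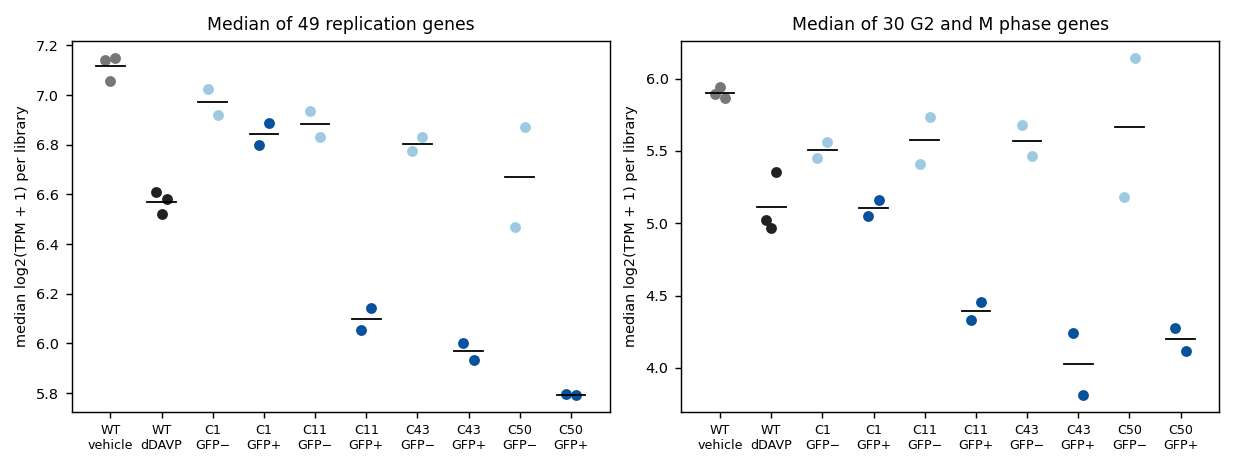
Median level of the 49 replication genes (left) and of 30 genes of G2 and M phase (right) in each library, as log2(TPM + 1); points are libraries and bars are group means. The 2 GFP-positive libraries of C1 lie at 6.80 and 6.89 on the left, and the 6 of the other clones between 5.79 and 6.14.

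**Figure D2:**
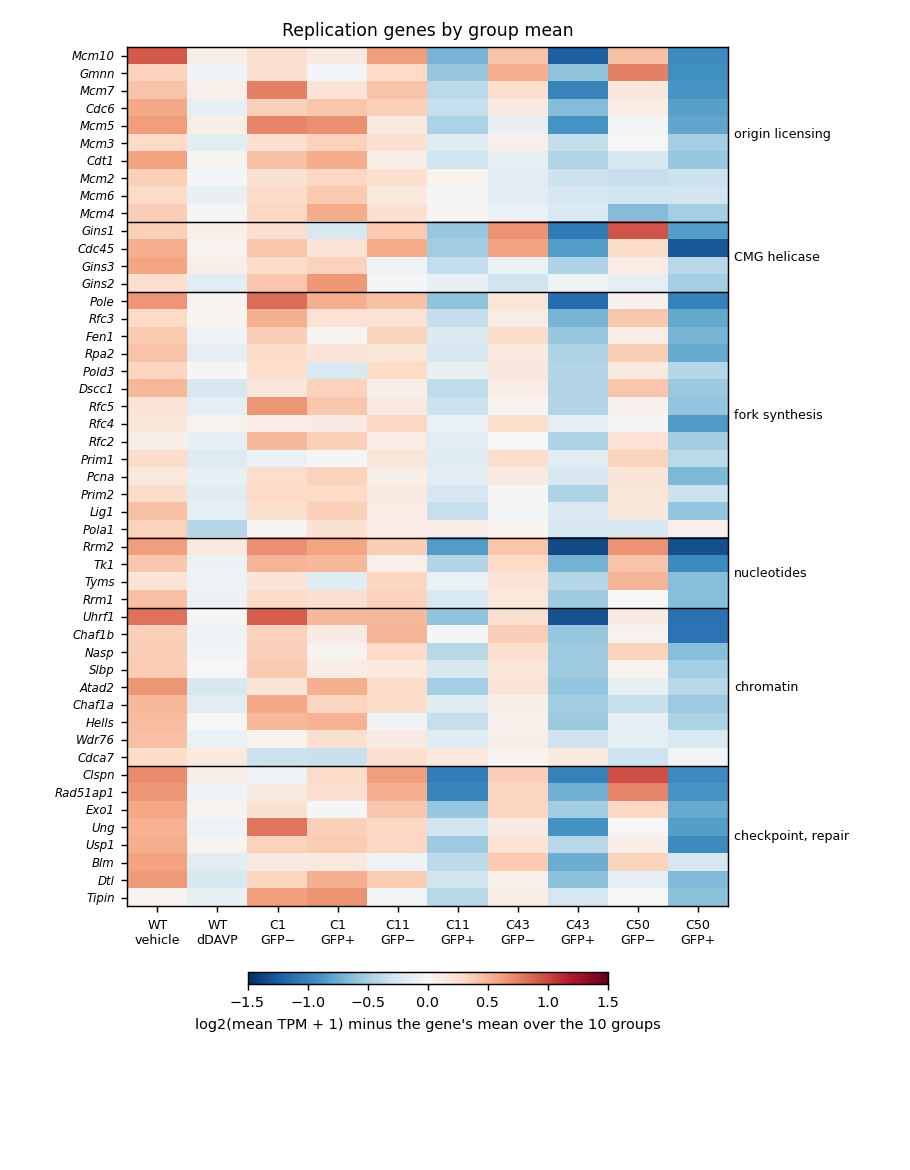
Level of each of the 49 genes in each group, as log2(mean TPM + 1) minus the gene's mean over the 10 groups, ordered by role; red is above and blue below that mean. The GFP-positive groups of C11, C43 and C50 are blue for most genes, while the GFP-positive group of C1 is mostly red; Cdca7 is above its mean in C11 and C43 and below it in C1.

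With dDAVP, WT cells had lower levels of most replication transcripts. Of the 49 genes, 36 fell (limma adjusted p under 0.05) and 0 rose, where 6.51% of all 13494 genes tested fell. All 49 changes were negative, as were 9498 of all 13494. They ran from -0.12 to -0.90 on the log2(TPM + 1) scale with a median of -0.49. In 48 of 49 every dDAVP library lay below every vehicle library, as in 28.7% of all genes. By role, 9 of 10 licensing genes fell, 2 of 4 helicase genes, 9 of 14 synthesis genes, 3 of 4 nucleotide genes, 6 of 9 chromatin genes and 7 of 8 checkpoint and repair genes. After median-ratio scaling 15 fell, with 46 negative changes and a median of -0.32, against 0.00027 over all genes. Leaving out any 1 library other than dDAVP replicate 2 left 12 to 20, and the 4 WT libraries with more genes detected alone called 0 (44 at an unadjusted p under 0.05, median -0.47), with 101 of 13879 genes called.

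The 8 largest dDAVP changes came from licensing, synthesis, chromatin and checkpoint genes. Atad2, a bromodomain ATPase of replicating chromatin, was 97.3, 71.1 and 76.8 TPM with vehicle and 40.7, 43.9 and 44.3 TPM with dDAVP, a log2 change of -0.90 (SE 0.12, limma adjusted p 0.00795). Dtl, the substrate adaptor of the ubiquitin ligase that destroys Cdt1 in S phase, was 87.2, 73.6 and 71.9 TPM against 38.0, 44.6 and 43.1 TPM (-0.87, SE 0.11, limma adjusted p 0.00554). Uhrf1, which brings the maintenance DNA methyltransferase to newly copied DNA, was 148, 138 and 143 TPM against 79.8, 85.8 and 75.9 TPM (-0.83, SE 0.075, limma adjusted p 0.00167). In these 3 genes the groups were far apart and the highest dDAVP library was well below the lowest vehicle library. Mcm10, which helps activate the helicase and is grouped with licensing here, was 42.9, 41.4 and 40.2 TPM against 23.1, 25.7 and 19.8 TPM (-0.84, SE 0.11, limma adjusted p 0.00679). Blm was 5.64, 4.45 and 4.60 TPM against 2.45, 2.04 and 2.79 TPM (-0.78, SE 0.18, limma adjusted p 0.0410). Pola1, the catalytic subunit of the primase-linked polymerase alpha, was 15.3, 15.3 and 15.2 TPM against 7.93, 8.84 and 8.94 TPM (-0.76, SE 0.10, limma adjusted p 0.00722). The 3 vehicle libraries of Pola1 were almost equal. Dscc1, of the clamp loader for sister chromatid cohesion, was 44.7, 44.9 and 47.8 TPM against 28.1, 27.3 and 26.1 TPM (-0.73, SE 0.078, limma adjusted p 0.00326). Rad51ap1, a DNA repair protein, was 55.0, 51.1 and 48.4 TPM against 33.2, 29.1 and 31.9 TPM (-0.70, SE 0.089, limma adjusted p 0.00679).

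The most abundant gene of each role had a smaller change with dDAVP than these 8. Mcm6 was 558, 520 and 486 TPM with vehicle and 379, 419 and 383 TPM with dDAVP, and fell by 0.40 (SE 0.077, limma adjusted p 0.0248). Slbp, which binds the stem-loop of histone mRNAs, was 251, 236 and 250 TPM against 197, 177 and 193 TPM, and fell by 0.38 (SE 0.071, limma adjusted p 0.0244). The groups did not overlap in either gene. Gins2, a subunit of GINS, was 154, 207 and 192 TPM against 152, 125 and 136 TPM, with a change of -0.41 that did not pass the test (limma adjusted p 0.0789). Rfc2, a subunit of the clamp loader, was 314, 305 and 330 TPM against 291, 257 and 262 TPM (-0.23, limma adjusted p 0.0897), and Tyms, the thymidylate synthase, was 244, 266 and 260 TPM against 225, 197 and 208 TPM (-0.29, limma adjusted p 0.0562). Tipin, of the fork protection complex, gave 216, 207 and 216 TPM against 205, 172 and 194 TPM (-0.16, limma adjusted p 0.214). The other genes that did not pass were Gmnn, Gins1, Pcna, Rfc3, Rfc4, Pold3, Hells, Cdca7 and Wdr76. The sliding clamp Pcna and the clamp loader subunits Rfc2, Rfc3 and Rfc4 are thus among those not called, while the subunit Rfc5 fell.

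Averaged over the 4 clones, GFP-positive cells had lower levels of most replication transcripts than GFP-negative cells, which held for C11, C43 and C50 and hardly for C1, where the median change was -0.02, against -0.06 over all genes, and 2 of 49 genes fell, near the 4.91% of all genes that did. In a fit over the 16 sorted libraries that allowed each clone its own level, 38 of the 49 genes fell and 0 rose (limma adjusted p under 0.05), where 23.2% of all 13113 genes tested fell. The median change was -0.49, against -0.06 over all genes. Without C1 it was -0.62, against -0.06 over all genes, with 41 genes called. By role, 6 of 10 licensing genes fell, 3 of 4 helicase genes, 13 of 14 synthesis genes, all 4 nucleotide genes, 5 of 9 chromatin genes and 7 of 8 checkpoint and repair genes. The 8 clone libraries with more genes detected called 42 members (median -0.71) and 4042 of 13536 genes, and the 8 with fewer called 0 members (20 at an unadjusted p under 0.05, median -0.39) and 250 of 12776 genes. These sets differ in clones as well: the first holds no GFP-negative library of C1, so C1 adds nothing to its GFP change, and the second holds 3 C1 libraries and no GFP-negative library of C11. With the mean of each clone as 1 replicate 21 fell.

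Rrm2, the S phase subunit of ribonucleotide reductase, had the largest change over the clones, -1.25 (SE 0.21, limma adjusted p 0.000322). It went from 130 and 154 TPM to 60.3 and 61.4 TPM in C11, from 152 and 141 to 38.9 and 46.0 TPM in C43, and from 133 and 217 to 40.6 and 45.8 TPM in C50. In C1 it was 167 and 188 TPM in the GFP-negative and 173 and 158 TPM in the GFP-positive libraries, which overlap. Gins1 (-1.24, SE 0.17, limma adjusted p 7.88e-05) was 34.8 and 31.5 against 17.9 and 15.3 TPM in C11, 39.2 and 41.7 against 14.2 and 8.81 TPM in C43, 55.9 and 42.0 against 14.7 and 12.6 TPM in C50, and 26.3 and 33.0 against 20.7 and 21.5 TPM in C1. Here the fractions were apart in all 4 clones, least in C1. Clspn, the adaptor that lets stalled forks activate Chk1 (-1.19, SE 0.29, limma adjusted p 0.00544), was 26.8 and 25.3 against 7.60 and 7.33 TPM in C11, 17.8 and 25.2 against 3.52 and 11.7 TPM in C43, and 43.2 and 22.8 against 7.19 and 8.96 TPM in C50. In C1 its GFP-positive libraries, at 19.9 and 20.3 TPM, were above the GFP-negative ones, at 15.5 and 16.2 TPM.

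Mcm10 (-1.09, SE 0.20, limma adjusted p 0.000588) was 28.3 and 39.0 against 12.8 and 13.0 TPM in C11, 30.5 and 27.9 against 8.89 and 8.16 TPM in C43, 19.0 and 40.0 against 10.7 and 10.8 TPM in C50, and 24.2 and 26.9 against 22.5 and 25.0 TPM in C1. Cdc45 (-1.07, SE 0.15, limma adjusted p 7.31e-05) was 122 and 124 against 57.9 and 58.2 TPM in C11, 139 and 116 against 48.6 and 43.6 TPM in C43, 87.6 and 114 against 34.3 and 33.9 TPM in C50, and 110 and 113 against 94.4 and 96.4 TPM in C1. In both genes the GFP-positive libraries of C11, C43 and C50 were far below their GFP-negative ones and those of C1 were close to them. Uhrf1 (-1.04, SE 0.18, limma adjusted p 0.000453) was 121 and 108 against 49.5 and 57.2 TPM in C11, 98.0 and 93.7 against 35.7 and 28.7 TPM in C43, 48.2 and 129 against 41.6 and 32.2 TPM in C50, and 146 and 161 against 111 and 117 TPM in C1. The GFP-negative libraries of C50 were far apart for Uhrf1. Rad51ap1 (-1.02, SE 0.20, limma adjusted p 0.00123) was 45.1 and 49.9 against 15.5 and 16.5 TPM in C11, 39.2 and 42.6 against 16.1 and 22.5 TPM in C43, 47.0 and 62.3 against 19.3 and 14.9 TPM in C50, and 31.7 and 40.1 against 41.2 and 36.4 TPM in C1. Gmnn (-0.99, SE 0.14, limma adjusted p 7.70e-05) was 134 and 124 against 71.7 and 69.7 TPM in C11, 157 and 150 against 67.6 and 69.9 TPM in C43, 185 and 171 against 54.5 and 55.3 TPM in C50, and 130 and 120 against 102 and 102 TPM in C1. Geminin, the inhibitor of relicensing, had little spread within each fraction, and its fractions were apart in all 4 clones.

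**Figure D3:**
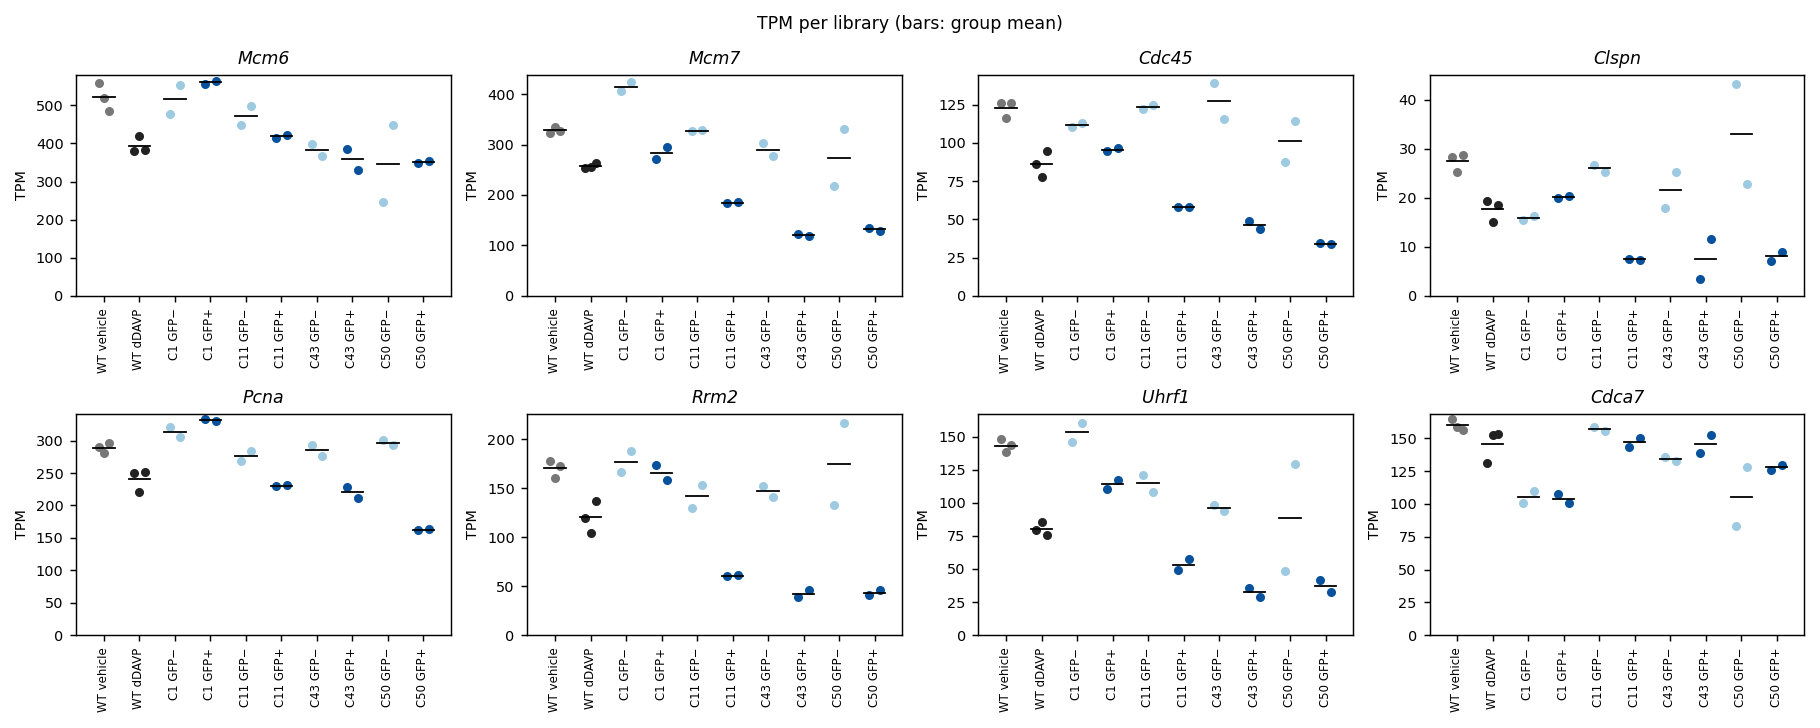
Expression (TPM) of 8 replication genes in each library by group, with bars at the group means and axes that start at 0. For Clspn, Cdc45, Rrm2 and Uhrf1 the GFP-positive libraries of C11, C43 and C50 lie below their GFP-negative libraries, while Mcm6 and Cdca7 show little difference between fractions.

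Not past the test over the clones were Cdt1, Mcm2, Mcm4, Mcm6, Gins2, Pola1, Chaf1a, Cdca7, Atad2, Wdr76 and Dtl. Cdca7, a chromatin factor that recruits the remodeller Hells, had a change of 0.08 (limma adjusted p 0.526), and was 159 and 156 against 143 and 151 TPM in C11, 136 and 132 against 139 and 152 TPM in C43, 83.2 and 128 against 126 and 130 TPM in C50, and 101 and 110 against 108 and 100 TPM in C1. Its correlation with the median of the other genes over the 10 group means was -0.21, the lowest of the 49, where the libraries and their common TPM total are shared. The next lowest were Pola1 (0.32) and Mcm4 (0.59), and the highest Cdc6 (0.99). Gins2 had a change of 0.0027, with 161 and 142 against 142 and 146 TPM in C11, 119 and 133 against 152 and 145 TPM in C43, 147 and 135 against 107 and 111 TPM in C50, and 211 and 205 against 231 and 255 TPM in C1. Its fractions were apart in opposite directions, lower with GFP in C50 and higher in C43 and C1.

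The 6 subunits of the MCM ring did not change in proportion, which was noticed after the values were seen and is given with no test. Mcm6 was 448 and 498 against 416 and 421 TPM in C11, 399 and 366 against 386 and 332 TPM in C43, 246 and 448 against 347 and 354 TPM in C50, and 478 and 554 against 557 and 565 TPM in C1. Relative to Mcm6 in the same library, Mcm7 went from 0.695 in the GFP-negative to 0.441 in the GFP-positive fraction in C11, from 0.758 to 0.339 in C43, from 0.812 to 0.375 in C50 and from 0.806 to 0.503 in C1 (means, n = 2 each). The fractions did not overlap for this ratio in any clone, C1 included. With dDAVP in WT cells it was 0.631 with vehicle and 0.654 with dDAVP (n = 3 each), within the spread of 0.577 to 0.688 over the 6 libraries. Mcm5 relative to Mcm6 was lower with dDAVP, at 0.825 to 0.849 with vehicle and 0.742 to 0.778 with dDAVP, while the ranges overlapped for Mcm2, Mcm3 and Mcm4. In the clones Mcm5 relative to Mcm6 went from 0.654 to 0.482 in C11, 0.674 to 0.421 in C43, 0.809 to 0.464 in C50 and 0.904 to 0.805 in C1, without overlap in any clone. Mcm3 relative to Mcm6 went from 0.812 to 0.690 in C11, 0.902 to 0.709 in C43 and 0.977 to 0.658 in C50, and in C1 the ranges overlapped (0.708 to 0.803 and 0.723 to 0.762). Mcm4 relative to Mcm6 was higher in the GFP-positive fraction without overlap in C1 (means of 0.613 and 0.668) and C50 (means of 0.458 and 0.508) and overlapped in C11 and C43, and Mcm2 overlapped in all 4 clones. In the fit over the clones Mcm7 fell by 0.91 (SE 0.097, limma adjusted p 6.77e-06) and Mcm5 by 0.53 (limma adjusted p 0.00121), while the changes of Mcm2 (-0.04), Mcm4 (0.04) and Mcm6 (-0.02) did not pass.

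**Figure D4:**
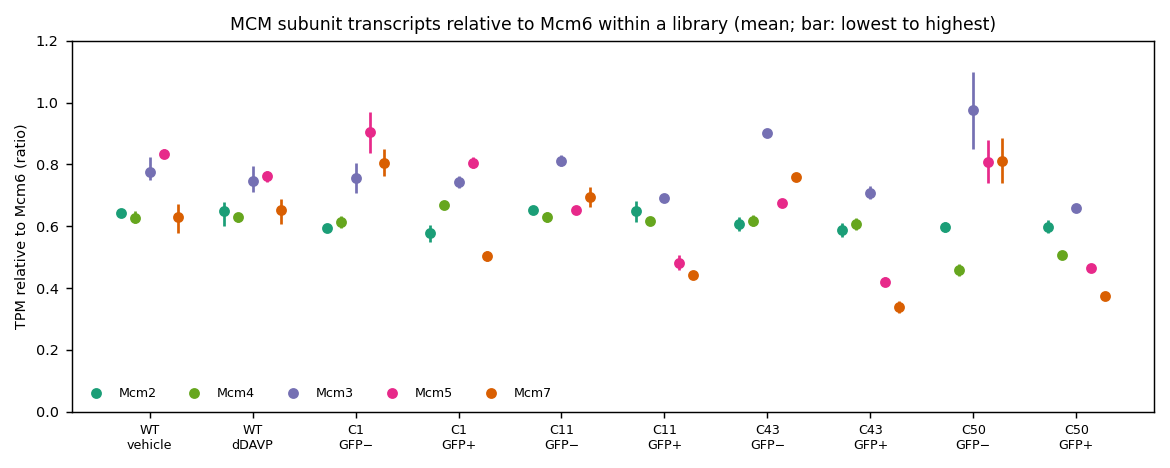
TPM of 5 MCM subunits relative to Mcm6 in the same library, by group; points are means and bars run from the lowest to the highest library. Mcm7 is lower in the GFP-positive than in the GFP-negative fraction of each clone, and Mcm2 stays between 0.55 and 0.68 in every library.

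Taken clone by clone, the lower level in GFP-positive cells was seen in C11, C43 and C50 and hardly in C1. In C11 24 of the 49 genes fell (5.70% of all genes; median -0.46), in C43 34 (12.0%; median -0.62) and in C50 36 (13.8%; median -0.76), and 0 rose in any of them (limma, adjusted p under 0.05). In C1 2 fell, Tyms and Pold3 (4.91% of all genes), with a median of -0.02. There 22 of 49 changes were positive, as were 5400 of all 13113. After median-ratio scaling that median was 0.06 and 28 were positive. Every GFP-positive library lay below every GFP-negative one for 47 genes in C11 (42.2% of all genes), 43 in C43 (42.1%), 40 in C50 (25.7%) and 18 in C1 (35.0%). In C1 the GFP-positive libraries lay above for 11 genes (19.8% of all genes), namely Cdt1, Mcm4, Mcm6, Gins2, Gins3, Prim1, Pcna, Dscc1, Atad2, Clspn and Dtl. Tyms, lower with GFP in all 4 clones, was 296 and 263 against 211 and 203 TPM in C11, 259 and 252 against 171 and 160 TPM in C43, 339 and 293 against 144 and 141 TPM in C50, and 259 and 251 against 203 and 189 TPM in C1. Pold3, a subunit of polymerase delta, had a change of -0.48 in C1 (SE 0.13, limma adjusted p 0.0412).

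The counts per clone moved with single libraries and with the spread shared between clones. No count over all genes stands beside those below. A change in these genes and a change over all genes therefore cannot be told apart from them. From the 4 libraries of C50 alone 0 genes were called (limma; 31 at an unadjusted p under 0.05), so the 36 calls of C50 rest on a spread estimated over all clones, while C11 alone gave 36, C43 alone 27 and C1 alone 2. In C11 they were 4 to 7 without any 1 of its own 4 libraries and 37 without either GFP-negative library of C50, and in C43 19 without its GFP-negative replicate 1. In C1 they were 0 without any 1 of its own libraries, of the GFP-positive libraries of C11 and C50 or of the GFP-negative libraries of C43, 1 without a GFP-negative library of C11, and 7 without either GFP-negative library of C50. In C50 39 fell without its GFP-negative replicate 1, and without replicate 2 33 fell and 5 rose, namely Mcm2, Mcm4, Mcm6, Chaf1a and Cdca7.

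**Figure D5:**
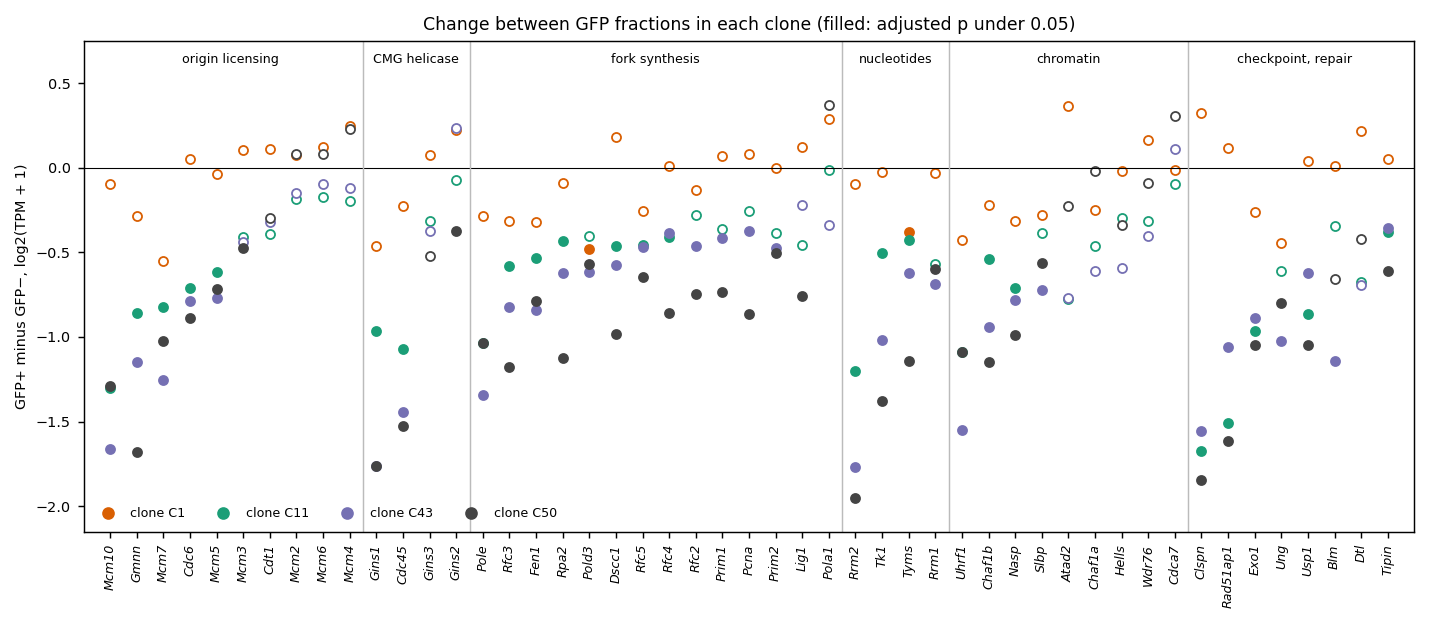
Change from the GFP-negative to the GFP-positive fraction in each clone, as a difference of mean log2(TPM + 1), for the 49 genes by role; filled points have a limma adjusted p under 0.05. The orange points of C1 lie between -0.55 and 0.36, and most points of the other clones lie below them.

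Called lower in each of C11, C43 and C50 were 24 genes (4.23% of all genes), among them Cdc6, Gmnn, Mcm5, Mcm7, Mcm10, Cdc45, Gins1, Pole, Rrm2, Tk1, Clspn, Exo1 and Rad51ap1, and called in no clone were 12 (66.4% of all genes), among them Cdt1, Mcm2, Mcm4, Mcm6, Hells and Atad2. Over the 49 genes, changes of C11 correlated with those of C43 (Pearson r 0.84) and C50 (0.77), and those of C43 with C50 (0.78). Changes of C1 correlated less with those of the other clones (0.21 to 0.46). These are descriptions over 49 genes of related function measured in the same libraries.

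The difference of C1 from the other clones was fitted as a contrast. C1 was known to differ in these data before its contrasts in GFP change and level were set. Their p-values therefore describe that difference and are no independent test of it. The GFP change depended on the clone for 8 of 49 genes (limma F-test of the interaction, adjusted p under 0.05; 28 at an unadjusted p under 0.05), where 0.869% of all genes did: Gmnn, Cdc45, Pcna, Dscc1, Rpa2, Rrm2, Tk1 and Rad51ap1. Set against the mean change of C11, C43 and C50, the change in C1 was higher for 12 genes and lower for 0, where 0.702% of all genes were higher. The 12 were Gmnn, Cdc45, Prim1, Pcna, Rfc4, Dscc1, Rpa2, Rrm2, Tk1, Chaf1b, Tipin and Rad51ap1. The contrast was positive for 48 of 49 genes (6433 of all 13113), with a median of 0.56 against -0.01 over all genes. Under each scaling tried 48 were positive. The same contrast called 0 genes for C11 (0.0915% of all genes; 2 at an unadjusted p under 0.05) and 0 for C43 (0.0458%; 10 at an unadjusted p under 0.05). For C50 7 genes fell more than in the other clones (0.656% of all genes): Gmnn, Pcna, Rfc2, Rfc4, Rpa2, Tyms and Tk1.

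Among the largest contrasts of C1, Clspn had 2.02 (SE 0.46) and did not pass (limma adjusted p 0.0801), nor did Mcm10 with 1.32 (SE 0.31, limma adjusted p 0.0829). Rrm2 had 1.55 (SE 0.22, limma adjusted p 0.00955) and Rad51ap1 1.51 (SE 0.23, limma adjusted p 0.0119). Gmnn had the smallest adjusted p, 0.00247, with a contrast of 0.94 (SE 0.10). Pcna, the sliding clamp, was 320 and 306 TPM in the GFP-negative and 333 and 330 TPM in the GFP-positive libraries of C1, and 301 and 293 against 162 and 163 TPM in C50. Its contrast was 0.58 in C1 (limma adjusted p 0.0141) and -0.68 in C50 (limma adjusted p 0.00727). The count for C1 was 1 to 4 without any 1 of its own libraries, 6 or 7 without any 1 library of C11, GFP-negative replicate 1 of C43 or GFP-positive replicate 2 of C50, and 28 or 24 without GFP-negative replicate 1 or 2 of C50. The interaction count was 1 to 5 without any 1 library other than those of C43 GFP-positive and C50 GFP-negative cells, and 24 or 35 without replicate 1 or 2 of the latter. The same contrast was -0.18 for GFP itself, which did not pass (limma adjusted p 0.988), and 2.31 for Aqp2 (limma adjusted p 1.25e-06), which was 72.6 and 66.5 TPM in the GFP-negative and 2027 and 2008 TPM in the GFP-positive libraries of C1.

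C1 also differed from the other clones in the level averaged over both fractions. That level depended on the clone for 36 of 49 genes (31.6% of all genes), and without C1 for 3. It was higher in C1 than in the mean of the other clones for 38 genes (14.9% of all genes) and lower for 1, Cdca7 (-0.36, SE 0.091, limma adjusted p 0.0118). Higher were 9 of 10 licensing genes, 3 of 4 helicase genes, 11 of 14 synthesis genes, 3 of 4 nucleotide genes, 7 of 9 chromatin genes and 5 of 8 checkpoint and repair genes, with a median contrast of 0.44 over the 49. The largest were Uhrf1 (1.09, SE 0.19, limma adjusted p 0.00139), Mcm5 (1.07, SE 0.092, limma adjusted p 1.05e-05), Pole (1.05, SE 0.13, limma adjusted p 0.000168) and Rrm2 (0.99, SE 0.11, limma adjusted p 7.21e-05). Mcm5 was 464 and 464 TPM in GFP-negative and 438 and 465 TPM in GFP-positive C1 libraries, against 294 and 324, then 190 and 213 TPM in C11, 271 and 245, then 156 and 145 TPM in C43, and 216 and 331, then 166 and 159 TPM in C50. Pole, the catalytic subunit of the leading-strand polymerase, was 39.7 and 47.0, then 36.1 and 34.3 TPM in C1, 27.6 and 38.0, then 16.2 and 14.5 TPM in C11, 28.4 and 26.1, then 8.77 and 11.7 TPM in C43, and 18.6 and 31.4, then 11.5 and 11.1 TPM in C50. For Mcm5 each C1 library was above every library of the other clones.

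In the GFP-positive fraction, both C1 libraries were above all 6 of the other clones for 44 of 49 genes, as for 17.1% of expressed genes, and in the GFP-negative fraction for 15 of 49, as for 11.8%. Of the most abundant genes of each role, Rfc2 was 388 and 368 TPM in GFP-positive C1 libraries against 202 to 264 TPM in the other 6, Slbp 216 and 192 against 117 to 160 TPM, and Tipin 343 and 315 against 131 to 175 TPM. Mcm6 and Gins2 were also above all 6, and Tyms was not, at 203 and 189 TPM in C1 against 211 and 203 TPM in C11. The same contrast of levels called 3 genes for C11 (9.02% of all genes; Chaf1b and Cdca7 higher, Tipin lower), 10 lower for C43 (5.16%) and 22 lower for C50 (7.85%), with 0 higher for C43 and C50. Of the 4 C1 libraries, 3 had fewer genes detected. With the number of genes detected as a covariate, 39 levels of C1 were called (median contrast 0.52) and 12 contrasts of its GFP change (median 0.51).

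Other replication genes, from a list of 63 from the same machinery, were mostly lower in both comparisons. With dDAVP 59 changes were negative, as were 9498 of all 13494. Over the clones 55 were negative, as were 7554 of all 13113. With dDAVP 28 fell and 1 rose, where 6.51% of all genes fell and 2.37% rose, with a median of -0.44. Over the clones 36 fell and 3 rose, where 23.2% of all genes fell and 12.1% rose, with a median of -0.32. Of 9 firing factors 4 fell with dDAVP and 7 over the clones, led by Recql4 (-0.86 with dDAVP) and by Dbf4, the activating subunit of the Cdc7 kinase. Dbf4 had a change of -1.53 over the clones (SE 0.15, limma adjusted p 2.49e-06) and fell in C1 too, from 36.7 and 35.2 to 18.3 and 17.0 TPM (-0.99, limma adjusted p 0.00826), the 1 gene of the 63 that fell there. A further 9 genes were listed with licensing: those of the origin recognition complex, Mcmbp, Mcm8 and Mcm9. Of these 1 fell with dDAVP (Mcm8, -0.56) and 3 over the clones (Mcm8, -0.57, Orc2, -0.28, and Orc6, -0.28). These shares are not far from those of all genes. Genes that rose with GFP were Pold4, a small subunit of polymerase delta (0.37, limma adjusted p 0.00108), and the histone chaperones Asf1a (0.22, limma adjusted p 0.0141) and Rbbp7 (0.50, limma adjusted p 0.000114). Rbbp7 also rose with dDAVP (0.30, limma adjusted p 0.0425).

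Genes of G2 and M phase, such as cyclin B and mitotic kinases, had median changes of larger size than the replication genes in the dDAVP and GFP comparisons. Of 30, 19 fell with dDAVP (6.51% of all genes; median -0.61) and 30 over the clones (23.2% of all genes; median -1.09). In C1 7 of the 30 fell (4.91% of all genes), and all 30 changes were negative (7712 of all 13113). The median was -0.44, against -0.02 for the replication genes. The contrast of C1 with the other clones was positive for all 30 (6433 of all 13113 genes), with a median of 0.90. It was called for 15 (higher in 0.702% of all genes).

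The dDAVP and GFP comparisons share no library, and the 28 genes called lower in both are 28 of 36 and 28 of 38. Of all 12765 genes tested in both, 3.14% were called lower in both, which is 45.9% of those lower with dDAVP and 13.2% of those lower over the clones. Called with dDAVP only were Cdt1, Mcm2, Mcm4, Mcm6, Pola1, Chaf1a, Atad2 and Dtl. Called over the clones only were Gmnn, Gins1, Pold3, Pcna, Rfc2, Rfc3, Rfc4, Tyms, Hells and Tipin. Gins2, Cdca7 and Wdr76 passed in neither. Over the 49 genes the dDAVP change correlated with the GFP change at a Pearson r of 0.38 in C11, 0.34 in C43, 0.02 in C50 and -0.30 in C1. Pola1 and Atad2 were among the 8 largest changes with dDAVP, and their changes over the clones were 0.08 and -0.35. Gins1 and Gmnn were among the 8 largest over the clones, and their dDAVP changes of -0.26 (limma adjusted p 0.0942) and -0.40 (limma adjusted p 0.0690) did not pass. Whether a gene's change differs between the dDAVP and GFP comparisons was not tested.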

How the data were processed

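RNA-seq of 22 libraries was analysed from the deposited table of TPM per gene and library. Total RNA was turned into cDNA with SMART-Seq HT and into paired-end libraries with Nextera XT, per the labels' protocols. Per the submitters' processing notes, STAR and RSEM were used, with no version or role given; build and annotation are not given in the sources used here. The deposited TPM were made by the authors and are scaled to a fixed total per library, so depth is unknown and precision rests on the spread between replicates. Of 55415 lines, 980 sharing 79 symbols were summed, which left 54514 entries. No column of per-library values went unmapped (0).

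Groups and replicate numbers came from the labels. Linear models were fitted with limma 3.58.1 in R 4.3.3 to log2(TPM + 1), a pseudocount of 1, over all genes whose mean in the fit reached 1 TPM (13494 for dDAVP, 13113 for the clones), with a mean-variance trend. Fold changes on this scale understate the change of low genes. Tests were two-sided, with Benjamini-Hochberg adjustment over all genes and a threshold of 0.05. The dDAVP test used the 6 WT libraries, the GFP test the 16 clone libraries with clone as a covariate, and tests within and between clones a mean per clone and fraction with a shared spread. The procedure was tested on simulated data with independent noise and changes larger than most of those reported here. That test does not show how well smaller changes are found.

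Values per library are given for the 8 largest called changes with dDAVP and over the clones, the 4 largest contrasts of C1 in GFP change and in level, genes called against the majority, and the most abundant gene of each role. For other lists, the 3 largest called changes per direction may be named. Promoters were chosen per role as the largest GFP change among genes with a match; Mcm6, the MCM ratios and Pcna were picked once values had been seen. The members and lists were chosen with earlier results of these data known, and so was C1 as the clone to contrast. Deviations of same-numbered libraries correlated weakly (-0.208, -0.0254 and -0.109 in WT cells, 0.0544, 0.0151, 0.203 and 0.0825 in the clones), so libraries were not treated as pairs. The labels do not say whether they were paired. Alternatives covered the pseudocount, filter, scaling, moderation, covariates, block and libraries left out; removing a trend with transcript length and GC was chosen after seeing the data. Dose and duration of dDAVP were not analysed.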

Additional observations from a re-analysis of the deposited data

Results flagged for a closer look

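The change from the GFP-negative to the GFP-positive fraction differed between the 4 clones for 8 replication genes by limma's F-test of the interaction (0.869% of all genes). The adjusted p was 0.00248 for Gmnn, 0.00956 for Pcna, 0.0176 for Tk1, 0.0196 for Cdc45, 0.0222 for Rrm2, 0.0346 for Rad51ap1, 0.0464 for Rpa2 and 0.0475 for Dscc1. In clone C1 the change was higher than the mean of the other 3 clones for 12 genes (0.702% of all genes), a count that was 1 to 4 without any 1 C1 library and 28 or 24 without GFP-negative replicate 1 or 2 of C50. That contrast, on the log2 scale, was 1.55 for Rrm2, 1.51 for Rad51ap1, 1.12 for Cdc45, 0.94 for Gmnn, 0.94 for Tk1 and 0.85 for Dscc1. It was 0.66 for Chaf1b, 0.64 for Rpa2, 0.58 for Pcna, 0.57 for Prim1, 0.56 for Rfc4 and 0.50 for Tipin. In clone C50 the change was lower than the mean of the other 3 clones for 7 genes (0.656% of all genes), with contrasts of -0.91 for Gmnn, -0.86 for Tk1, -0.74 for Rpa2, -0.68 for Pcna, -0.67 for Tyms, -0.60 for Rfc4 and -0.45 for Rfc2. The contrasts of C1 and C50 use the same libraries and are not independent of each other.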

How the results depend on the processing

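The number of replication genes called was compared over the alternatives for dDAVP, GFP over the clones and in each clone, the interaction and level by clone. The contrasts of C1 in GFP change and level were compared too. No gene already called in these changed direction (0 reversed). With all libraries kept, Gins2 was called higher in C43 with quantile normalization (0.34, limma adjusted p 0.0428). Cdca7 was called higher in C50 with the length and GC trend removed (0.44, limma adjusted p 0.043). Neither was called there with the settings used above. The contrasts of C11, C43 and C50 in GFP change and level were not run under the alternatives. For most alternatives, here and above, no share over all genes is given. A shift in these genes and a shift in calls over all genes therefore cannot be told apart from the counts. With dDAVP the count of 36 became 18 with all genes above 0 TPM tested, 15 with median-ratio scaling, 20 with no trend, 23 with the length and GC trend removed, and 0 (44 at an unadjusted p under 0.05) in the 4 WT libraries with more genes detected. Over the clones 38 became 21 with clone means as replicates and 0 (20 unadjusted) in the clone libraries with fewer genes detected. In C1 2 became 0 with all genes above 0 TPM tested or no trend, 1 with median-ratio scaling, quantile normalization or the length and GC trend removed, 0 without clone C11 or C43, and 6 without C50. In C11 24 became 10 with all genes above 0 TPM tested and 10 without clone C1, in C43 34 became 21 with median-ratio scaling, and in C50 36 became 0 (31 unadjusted) from its 4 libraries alone. The contrast of C1 went from 12 to 7 with all genes above 0 TPM tested, 6 with no trend, 19 with the length and GC trend removed and 5 without clone C11. The interaction went from 8 to 4 with all genes above 0 TPM tested, 14 with quantile normalization, 4 with no trend, 14 with the length and GC trend removed, 0 without clone C1 and 2 without C11. The dependence of level on clone went from 36 to 3 without clone C1, and the 39 levels of C1 were within 1.5 times under every alternative run. Leaving out 1 library gave 12 to 35 with dDAVP, 34 to 41 over the clones, 0 to 7 in C1, 4 to 37 in C11, 19 to 38 in C43, 27 to 39 in C50, 1 to 28 for the contrast of C1, 1 to 35 for the interaction and 27 to 42 for level by clone.

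The labels do not say whether libraries with the same number belong together. Their deviations correlated only weakly, which does not settle whether they were paired. With the replicate block the count was 1 with dDAVP, 0 in C1 (9 at an unadjusted p under 0.05), 12 in C11, 3 for the contrast of C1 and 0 for the interaction (25 unadjusted), and elsewhere within 1.5 times. Depth is unknown, and 2 libraries per clone and fraction limit the precision. The causes of these differences were not tested.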

Other observations

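Regulators of the step from G1 to S were mostly lower over the clones, with 17 of 21 changes negative, as were 7554 of all 13113. Of these genes (E2F factors and partners, pocket proteins, G1/S cyclins and their kinase inhibitors), 7 fell with dDAVP (6.51% of all genes) and 0 rose, while over the clones 12 fell (23.2% of all genes) and 3 rose, a share close to the 12.1% of all genes that rose. Ccnd1, cyclin D1, which starts the inactivation of the retinoblastoma protein, had the largest change of the list over the clones, -3.23 (SE 0.15, limma adjusted p 3.53e-09). It was 17.7 and 11.0 against 0.64 and 0.65 TPM in C11, 24.4 and 23.0 against 1.08 and 1.13 TPM in C43, 16.5 and 23.4 against 0.68 and 0.76 TPM in C50, and 23.9 and 17.3 against 2.55 and 2.42 TPM in C1. Its fractions were thus far apart in all 4 clones, also in C1, where the change was -2.61 (limma adjusted p 8.00e-05). With dDAVP in WT cells Ccnd1 was 16.4, 11.0 and 20.5 against 13.9, 12.1 and 15.5 TPM, which overlap (limma adjusted p 0.630).

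The pocket proteins Rbl2 and Rb1 and the factor E2f5 rose over the clones, by 0.78 (limma adjusted p 0.00281), 0.42 (limma adjusted p 0.0128) and 0.30 (limma adjusted p 0.00393). With dDAVP Rb1 fell by 0.52 (limma adjusted p 0.0452), and the changes of Rbl2 (0.05) and E2f5 (-0.01) did not pass. E2f7, a repressor that is itself a target of E2F factors, led the list with dDAVP, at 45.8, 39.7 and 40.2 against 20.8, 22.9 and 18.01 TPM (-0.996, limma adjusted p 0.00425), and fell over the clones (-0.83, limma adjusted p 0.00449). In C1 it was 24.2 and 24.1 against 27.9 and 24.4 TPM, a change of 0.11 that did not pass.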
